A study of Rattus norvegicus with 6 samples.

Results

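The genes described here are the rat major histocompatibility complex (MHC) genes of class I and class II, whose rat symbols begin with RT1-, together with Cd74, Ciita, B2m, Tap1, Tap2, Tapbp and Nlrc5. Selection was by symbol in the deposited table and found 38 of its 23802 rows. Of these, 21 are class I rows, 10 are class II chain rows, 2 are class II partners (Cd74 and Ciita) and 5 belong to the class I machinery. All were measured in polyA RNA from whole lung of wild-type male Sprague-Dawley rats weighing 200 to 250 g. In the MCT group, 3 samples came from rats given 1 dose of 60 mg/kg of monocrotaline, a plant alkaloid that injures the lung vessels and is used to produce pulmonary arterial hypertension, and their lungs were taken after 4 weeks. The 3 control samples came from rats given saline subcutaneously. The labels give the MCT injection as intraperitoneal in one place and as subcutaneous in another. Sprague-Dawley rats are an outbred stock whose MHC alleles can differ between animals, and no MHC typing was used here.

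Class I molecules are a heavy chain paired with beta-2-microglobulin, the product of B2m, and show peptides from inside the cell to CD8 T cells and natural killer cells. The peptides are carried into the endoplasmic reticulum by the transporter of Tap1 and Tap2 and loaded with the help of tapasin, the product of Tapbp, while Nlrc5 encodes the transactivator of class I genes. Class II molecules are an alpha and a beta chain that show peptides from engulfed material to CD4 T cells, mainly on macrophages, dendritic cells and B cells, and in the lung also on alveolar type 2 cells. Cd74 encodes the invariant chain that guards the class II groove, Ciita the class II transactivator, and the DM and DO chains edit which peptide is kept. In the rat the RT1-A genes are the classical class I genes, and RT1-D and RT1-B are the counterparts of human DR and DQ.

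Promoters of 6 members are shown because the classes of this family carry different short motifs before their start sites. A RefSeq promoter window of 300 bases, from 250 before to 50 after the start, was matched by symbol for 32 of the 38 members. The 250 bases before the start are printed 5′ to 3′ on the gene's own strand. Their build, GRCr8, is not that of the deposited table (Rnor_6.0). RT1-Da lies at chr20:4515165-4515414 on the plus strand, RT1-Bb at chr20:4604119-4604368 on the minus strand and RT1-Ba at chr20:4576807-4577056 on the plus strand. Tap1 is at chr20:4668544-4668793 on the minus strand, RT1-A2 at chr20:4872621-4872870 on the plus strand and RT1-CE1 at chr20:3564091-3564340 on the minus strand. Capitals mark exact matches, on either strand, to a Y box core, an X box core in a strict and a loose form, or the core of the interferon-stimulated response element. Variant forms of these elements stay in lower case, so an unmarked stretch is not shown to lack them.
RT1-Da: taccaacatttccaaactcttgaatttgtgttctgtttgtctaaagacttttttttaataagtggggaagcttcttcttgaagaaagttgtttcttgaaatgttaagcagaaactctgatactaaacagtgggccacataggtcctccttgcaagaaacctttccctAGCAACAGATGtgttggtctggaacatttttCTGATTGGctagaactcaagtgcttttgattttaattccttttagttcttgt
RT1-Bb: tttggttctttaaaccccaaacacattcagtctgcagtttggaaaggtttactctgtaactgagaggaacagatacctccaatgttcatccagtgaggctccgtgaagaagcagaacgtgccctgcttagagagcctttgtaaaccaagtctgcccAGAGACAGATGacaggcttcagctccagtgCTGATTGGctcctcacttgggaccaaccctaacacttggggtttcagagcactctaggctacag
RT1-Ba: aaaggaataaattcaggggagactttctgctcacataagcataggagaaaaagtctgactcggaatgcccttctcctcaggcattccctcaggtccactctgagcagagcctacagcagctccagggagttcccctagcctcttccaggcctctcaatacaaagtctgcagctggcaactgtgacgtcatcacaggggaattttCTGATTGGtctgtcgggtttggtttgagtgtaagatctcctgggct
Tap1: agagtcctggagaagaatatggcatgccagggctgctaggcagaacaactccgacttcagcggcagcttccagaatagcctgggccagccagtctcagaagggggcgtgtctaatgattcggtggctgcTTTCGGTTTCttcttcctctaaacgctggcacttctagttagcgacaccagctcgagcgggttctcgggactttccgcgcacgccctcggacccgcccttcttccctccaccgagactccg
RT1-A2: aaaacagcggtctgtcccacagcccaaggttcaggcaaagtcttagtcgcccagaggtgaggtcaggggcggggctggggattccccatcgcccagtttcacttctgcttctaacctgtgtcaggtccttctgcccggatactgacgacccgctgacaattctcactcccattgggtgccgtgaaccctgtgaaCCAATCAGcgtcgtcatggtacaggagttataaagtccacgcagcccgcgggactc
RT1-CE1: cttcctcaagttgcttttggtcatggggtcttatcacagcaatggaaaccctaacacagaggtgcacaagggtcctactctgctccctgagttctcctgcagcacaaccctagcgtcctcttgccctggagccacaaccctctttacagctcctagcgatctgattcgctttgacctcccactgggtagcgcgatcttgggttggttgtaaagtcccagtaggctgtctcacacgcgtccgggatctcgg

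The Y box core CTGATTGG, a binding sequence of the factor NF-Y, was found in 7 of the 9 matched class II chain promoters and in 6 of the 18 matched class I promoters. It stood in 0 of the 4 matched machinery promoters and in 3.50% of all 33469 promoter windows of the same length. The strict X box core was GCAAC, any base and GATG, a part of the sequence bound by the RFX complex. It was found in 4 of the 9 class II promoters, in 0 of the 18 class I promoters and in 0.140% of all windows. In RT1-Da it began 82 bases before the start and the Y box core 52 bases before it.

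The loose X box form, AG, any 2 bases, AC, any base and GATG, overlaps the strict one. It was found in 5 of the 9 class II promoters, among them RT1-Bb at 94 bases before the start, in 1 of the 18 class I promoters and in 0.950% of all windows. The response element core, GAAA, any 2 bases and GAAA, is a binding sequence of interferon regulatory factors and was found in all 4 matched machinery promoters (B2m, Tap1, Tap2 and Tapbp). It stood in 3 of the 18 class I promoters, in 0 of the 9 class II promoters and in 3.92% of all windows. Only exact matches to this pattern were counted. RT1-A2 holds the near form agtttcacttct, which the pattern does not match, so a promoter without a match may still hold a variant element. Shorter sequences were less selective: ATTGG, which lies within the Y box core, stood in 9 of 9 class II, 13 of 18 class I and 37.5% of all windows, and the cyclic AMP response sequence TGACGT in 1 of 9, 1 of 18 and 7.94%. The class II promoter with TGACGT was that of RT1-Ba, 69 bases before the start. There it follows ggcaactg, which begins like the strict X box core but lacks its GATG and was not counted. The promoter of RT1-CE1 held none of the cores marked in capitals in its window. A link between these motifs and the changes in level was not tested.

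Class II transcripts were more abundant relative to class I transcripts in MCT lung than in control lung. Levels are CPM, counts scaled to the library's size with TMM, a normalization that makes libraries comparable, and values in a row follow the order of replicates 1 to 3. Summed over the 21 class I rows, the level was 1894, 1957 and 2682 CPM in control lungs, against 1287, 1527 and 1220 CPM in MCT lungs. The 10 class II chain rows summed to 628, 678 and 1133 CPM in the controls, against 1594, 1257 and 1448 CPM after MCT. Every MCT sample lay below every control in the class I sum and above every control in the class II sum. Class II made up 24.9%, 25.7% and 29.7% of both sums together in control lungs, against 55.3%, 45.2% and 54.3% after MCT.

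On the log2 scale the ratio of the class II sum to the class I sum was -1.46 ± 0.19 in controls and 0.09 ± 0.32 in MCT lung (SD, n = 3), a difference of 1.55. The class I sum differed by -0.68 and the class II sum by 0.86. RT1-Da, a row that was not called, made 513 of 813 CPM of the mean class II sum in controls and 929 of 1433 CPM in MCT lung. Without RT1-Da and RT1-A2, the highest row of each class, the class II sum differed by 0.75, the class I sum by -0.70 and the ratio by 1.46. Of the 9 tested class II chain rows, 6 had positive and 3 negative log2 fold changes. No p-value is given because these sums are scores over chosen genes. A ratio within a library does not depend on library scaling, and the class I sum does not depend on how reads were divided among the 21 class I rows. Reads shared with copies outside the summed rows can change either sum. With the copies that carry LOC symbols added, which was not planned, the class I sum differed by -0.65, the class II sum by 0.88 and the ratio by 1.53. Summed FPKM, the deposited values per length and depth, gave a difference of 1.46, and leaving out any 1 sample gave 1.44 to 1.73. In bulk tissue, fewer cells of a type and less RNA per cell cannot be told apart.

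**Figure D1:**
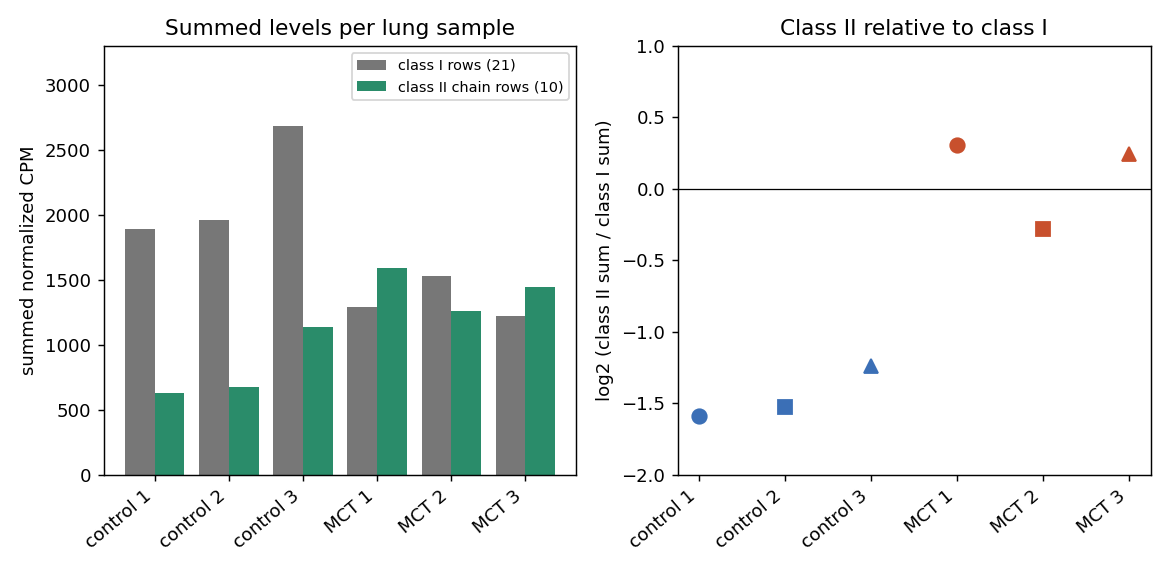
Left, summed normalized CPM (y axis) of the 21 class I rows (grey bars) and the 10 class II chain rows (green bars) in each of the 6 lung samples (x axis). Right, log2 of the class II sum over the class I sum per sample, where controls lie between -1.59 and -1.24 and MCT samples between -0.28 and 0.31.

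Row by row, edgeR's quasi-likelihood test on all genes called 1 MHC row higher and 5 lower in MCT lung, at a Benjamini-Hochberg adjusted p under 0.05, and 25 of the 31 tested rows were not called. Over all 15250 genes tested, 8.01% were called higher and 5.11% lower. By the other counts used below, 15.9% of all genes were higher and 14.2% lower at an unadjusted p under 0.05. DESeq2 called 10.5% higher and 7.75% lower, and limma-voom 7.45% and 4.98%. The 5 lower calls were all class I rows and the 1 higher call was a class II row, RT1-DMb. MCT and control samples did not overlap in 10 of the 31 rows, with 3 above and 7 below. Over all tested genes 35.4% did not overlap (18.4% above and 17% below), so the share among MHC rows was near the background. The median log2 fold change was -0.58 over the 15 tested class I rows, 0.37 over the 9 tested class II chain rows, 0.09 over the 5 machinery rows and -0.01 over all tested genes.

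The count of class I rows called lower changed when 1 sample was left out. It was 5 without control replicate 1, 3 without control replicate 2 and 0 without control replicate 3, the sample with the highest class I sum. It was 1 without MCT replicate 1, 6 without MCT replicate 2 and 1 without MCT replicate 3. Over all genes the count of lower calls changed as well, from 779 to 591, 273 and 212 without control replicates 1, 2 and 3. It was 343, 978 and 324 without MCT replicates 1, 2 and 3. Both counts were lowest without control replicate 3 and highest without MCT replicate 2. Lower calls given below for lists in the same fits are to be read beside these.

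**Figure D2:**
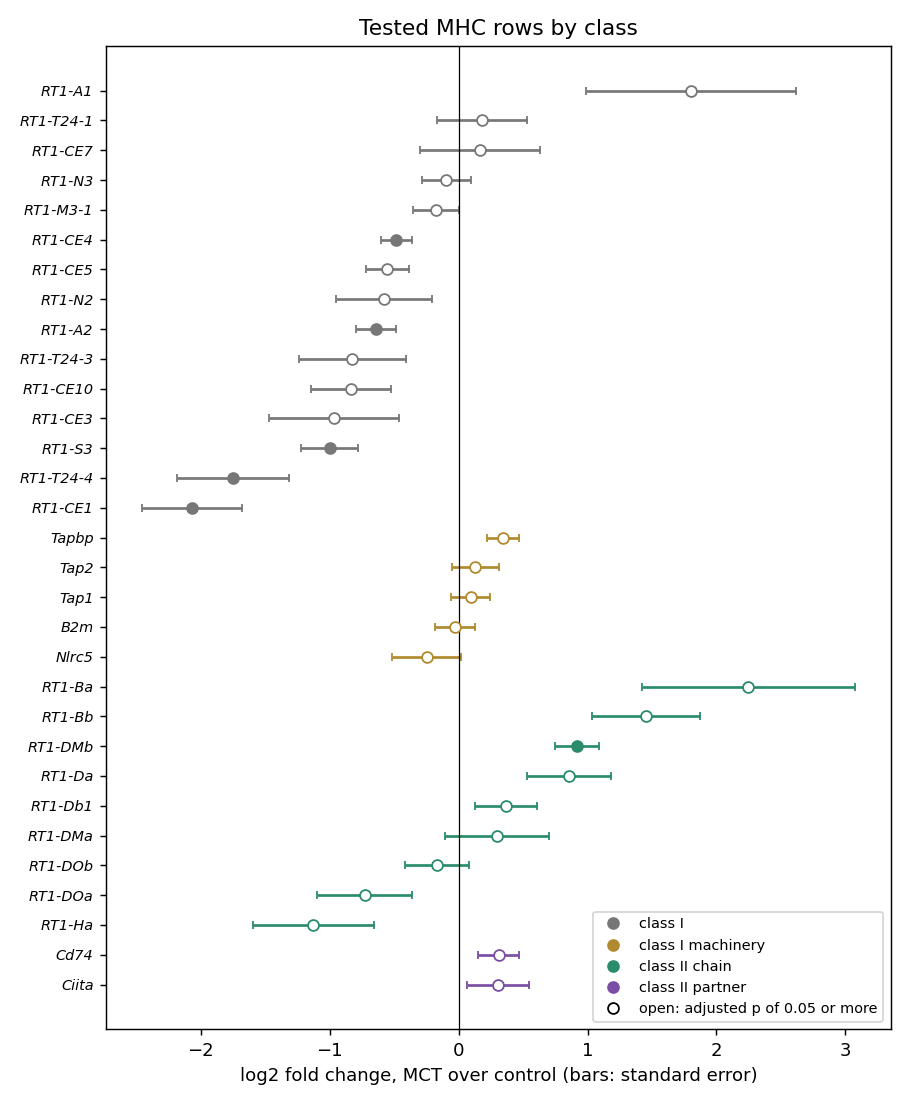
Log2 fold change of MCT over control (x axis, bars are the standard error) for the 31 tested rows (y axis), coloured by class, with filled points called at an adjusted p under 0.05. The filled points are 5 class I rows on the left and RT1-DMb on the right.

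Among class I rows, 5 of the 15 tested fell, 0 rose and 10 were not called. At an unadjusted p under 0.05 there were 7 lower and 0 higher, DESeq2 called 6 lower and 0 higher, and limma-voom 5 lower and 0 higher. RT1-A2 (ENSRNOG00000030712), a classical class I gene and the most abundant class I row, had 498, 508 and 644 CPM in control lungs, against 389, 364 and 305 CPM in MCT lungs. All MCT samples were below all controls, and the row fell by 0.64 on the log2 scale (SE 0.16, adjusted p = 0.0328).

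RT1-S3 (ENSRNOG00000000777), a class I gene outside the classical RT1-A region, had 208, 188 and 305 CPM in controls, against 109, 146 and 94.9 CPM after MCT. It fell by 1.001 (SE 0.22, adjusted p = 0.0225), and its groups did not overlap. RT1-CE4 (ENSRNOG00000039744), of the RT1-C/E region, was even within the groups, with 209, 204 and 218 CPM in controls, against 138, 169 and 143 CPM after MCT. This row fell by 0.48 (SE 0.12, adjusted p = 0.0344).

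The largest falls were in RT1-CE1 (ENSRNOG00000050183) and RT1-T24-4 (ENSRNOG00000042905), further class I genes. RT1-CE1 had 169, 158 and 272 CPM in control lungs, against 29.2, 79.8 and 33.5 CPM in MCT lungs, and fell by 2.07 (SE 0.39, adjusted p = 0.0127). Without MCT replicate 2 its log2 fold change was -2.67, and its call was lost without control replicate 3 (adjusted p = 0.0501, range over the alternatives 1.82e-07 to 0.0501). RT1-T24-4 had 358, 174 and 488 CPM in controls, against 64.4, 164 and 74.7 CPM after MCT. The row fell by 1.75 (SE 0.44, adjusted p = 0.0339), although control replicate 2 and MCT replicate 2 were close to each other. In both rows MCT replicate 2 was the highest of the MCT samples.

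The groups of all 5 called rows did not overlap, so leaving out 1 sample could not reverse their direction. The adjusted p of the 4 rows other than RT1-CE1 went above 0.05 for several choices of the sample left out. The log2 fold changes ranged from -0.71 to -0.51 for RT1-A2, from -0.58 to -0.42 for RT1-CE4, from -1.20 to -0.76 for RT1-S3 and from -2.29 to -1.39 for RT1-T24-4. Without control replicate 3 the adjusted p was 0.122 for RT1-A2, 0.116 for RT1-T24-4, 0.123 for RT1-CE4 and 0.0737 for RT1-S3. Without MCT replicate 1 these were 0.0507, 0.0927, 0.107 and 0.0676, and without MCT replicate 3 they were 0.121, 0.11, 0.128 and 0.0816. Calls were also lost without control replicate 1 for RT1-T24-4 (adjusted p = 0.0756) and RT1-CE4 (adjusted p = 0.0694), and without control replicate 2 for RT1-A2 (adjusted p = 0.0694) and for RT1-CE4 (adjusted p = 0.0831).

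RT1-CE5 (ENSRNOG00000000723) was the remaining tested class I row whose groups did not overlap, with 184, 274 and 260.5 CPM in controls, against 177, 150 and 163 CPM in MCT lung. Its log2 fold change was -0.55 (SE 0.17, adjusted p = 0.0616), which passed with DESeq2 (adjusted p = 0.0199) and also when control replicate 1 was left out (adjusted p = 0.021). Summed, the 5 called rows made 1533 ± 356 CPM in controls and 768 ± 140 CPM in MCT lung (SD, n = 3), a description that follows from the calls. The other 16 class I rows together made 645.0 ± 167 and 577 ± 24.4 CPM, with overlapping groups.

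RT1-A1 (ENSRNOG00000038999), the other classical gene in the table, went the opposite way in some lungs and was singled out after its values were seen. It had 14.6, 13.4 and 81.3 CPM in control lungs, against 168, 28.9 and 187 CPM in MCT lungs. Control replicate 3 was far above the other controls and MCT replicate 2 far below the other MCT samples, with a spread of 6.07-fold within controls and 6.46-fold within the MCT group. Its log2 fold change of 1.80 did not pass (SE 0.81, adjusted p = 0.177), and the groups overlapped. The other 8 tested class I rows also had overlapping groups, with log2 fold changes from -0.96 in RT1-CE3 to 0.18 in RT1-T24-1. RT1-M3-1, counterpart of a mouse gene whose product shows formylated peptides, had -0.18 (adjusted p = 0.55).

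**Figure D3:**
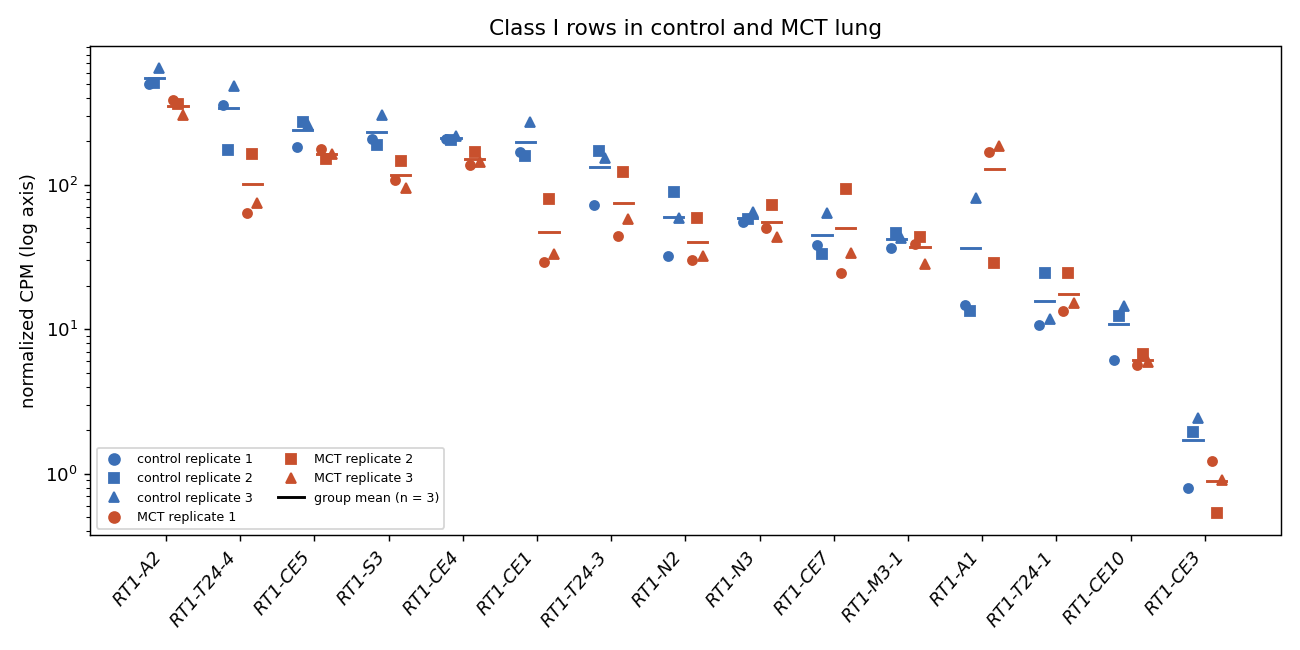
Normalized CPM (y axis, log scale) of the 15 tested class I rows (x axis) in 3 control (blue) and 3 MCT (orange) samples, with marker shapes for replicates and bars for group means. RT1-CE1 runs from 158 to 272 CPM in controls and from 29.2 to 79.8 CPM in MCT lung, while RT1-A1 splits within both groups.

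The remaining 6 class I rows were below the filter on low counts. RT1-M4 had no count in any sample and RT1-M5 had 2 counts, in control replicate 1. RT1-M2 had 4, 5 and 8 counts in controls and 42, 23 and 8 in MCT samples, and RT1-S2, RT1-M6-1 and RT1-M6-2 made up the rest. RT1-M2 passed the filter without MCT replicate 3 and was then called higher (log2 fold change 2.52, adjusted p = 0.0346). It was also tested, and not called, without any 1 control (adjusted p = 0.14 to 0.157) and with no filter (adjusted p = 0.0661).

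Reads shared between class I copies limit the values of single rows. Counts with decimals, as an estimate makes when a read fits more than 1 gene, stood in 15 of the 21 class I rows and in 2445 of all 23802 rows. RT1-A2, RT1-A1, RT1-S3, RT1-CE1, RT1-CE4, RT1-CE5 and RT1-T24-4 had them in all 6 samples, so the division of reads among these rows is uncertain. RT1-M3-1 had whole counts in all samples. The median within-group SD of log2 CPM was 0.51 over tested class I rows and 0.52 over class II chain rows, against 0.21 over machinery rows and 0.22 over all tested genes. In 9 of 15 class I rows and 7 of 9 class II rows, samples of 1 group differed by more than 2-fold. The part of allele differences between outbred animals in this spread was not tested.

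The machinery that class I molecules need was not called in either direction. Of its 5 genes edgeR, DESeq2 and limma-voom each called 0 higher and 0 lower, and at an unadjusted p under 0.05 there was 1 higher and 0 lower. B2m (ENSRNOG00000017123), whose product pairs with class I heavy chains, had 3148, 2883 and 3169 CPM in control lungs, against 3122, 3102 and 2801 CPM in MCT lungs. The ranges overlapped, and -0.028 was the log2 fold change (SE 0.16, adjusted p = 0.93).

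The peptide transporter subunits were also in overlapping ranges. Tap1 (ENSRNOG00000000457) had 85.6, 104 and 93.5 CPM in controls, against 84.8, 121 and 96.1 CPM in MCT lung, with 0.093 as its log2 fold change (SE 0.15, adjusted p = 0.727). Tap2 (ENSRNOG00000000455) had 76.9, 74.8 and 88.97 CPM in controls, against 64.8, 109 and 89.1 CPM after MCT, with 0.13 as its log2 fold change (SE 0.18, adjusted p = 0.687). In both genes MCT replicate 2 was the highest sample.

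Tapbp (ENSRNOG00000029500), the tapasin gene, had 55.8, 60.5 and 59.7 CPM in controls, against 84.1, 74.3 and 65.3 CPM after MCT. All MCT samples were above all controls, but the log2 fold change of 0.35 did not pass (SE 0.12, adjusted p = 0.102). Nlrc5 (ENSRNOG00000048222), the class I transactivator gene, was low, with 7.32, 13.03 and 12.6 CPM in controls, against 10.6, 10.02 and 7.07 CPM in MCT lung and -0.25 as its log2 fold change (SE 0.27, adjusted p = 0.583).

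Of 12 other genes of peptide supply and loading, a list that holds the immunoproteasome subunits and the chaperones of the endoplasmic reticulum, 1 rose, 0 fell and 11 were not called (median log2 fold change 0.17). Over all tested genes 8.01% were called higher, so 1 of 12 was near the background. The calreticulin gene Calr rose from 534 to 996 CPM in the mean (log2 fold change 0.90, SE 0.20, adjusted p = 0.0239). Its call was lost when control replicate 2 or 3, or MCT replicate 1 or 3, was left out (adjusted p = 0.0597 to 0.0975). Canx, the calnexin gene and the most abundant of the list over all 6 samples, had 0.31 (adjusted p = 0.263). Without control replicate 1 the chaperone gene Hspa5, outside the rule for named genes, was called as well (log2 fold change 1.57, adjusted p = 0.019, against 0.94 and 0.157 with all samples).

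Among the 9 tested class II chain rows, RT1-DMb rose, 0 fell and 8 were not called. With 8.01% of all tested genes called higher, 1 of 9 was near the background. Unadjusted, 4 were higher and 1 lower at p under 0.05. DESeq2 called 2 higher and 0 lower, and limma-voom 1 higher and 0 lower. RT1-Da (ENSRNOG00000032844), the alpha chain of the DR counterpart and the most abundant chain, had 379, 353 and 808 CPM in control lungs, against 1157, 746 and 884 CPM in MCT lungs. Control replicate 3 lay inside the MCT range and more than 2-fold above the other controls. Its log2 fold change of 0.86 was not called (SE 0.32, adjusted p = 0.118). It passed with DESeq2 (adjusted p = 0.0289) and, at 1.34, without control replicate 3 (adjusted p = 0.0229).

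Its beta chain partner RT1-Db1 (ENSRNOG00000033215) had 117, 134 and 163 CPM in controls, against 250.4, 131 and 154 CPM in MCT lung. MCT replicate 1 alone stood above the controls, and 0.37 was the log2 fold change (SE 0.24, adjusted p = 0.343). Per length, RT1-Da had 2.99, 2.43 and 4.58 times the FPKM of RT1-Db1 in controls, against 4.27, 5.25 and 5.32 times after MCT, with control replicate 3 inside the MCT range. The second beta chain row, RT1-Db2, had 1 to 24 counts per sample and was not tested.

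The DQ counterparts RT1-Ba and RT1-Bb were high in MCT replicates 2 and 3. RT1-Ba (ENSRNOG00000000451), the alpha chain, had 11.5, 12.4 and 4.21 CPM in control lungs, against 4.14, 73.1 and 54.8 CPM in MCT lungs. MCT replicate 1 had the lowest level of all 6 samples, 17.7-fold below MCT replicate 2. RT1-Bb (ENSRNOG00000032708), the beta chain, had 51.4, 74.6 and 48.7 CPM in controls, against 60.4, 192 and 226 CPM after MCT. For both rows MCT replicate 1 lay within the control range or below it.

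Neither chain passed, with log2 fold changes of 2.25 (SE 0.83, adjusted p = 0.11) for RT1-Ba and 1.45 (SE 0.42, adjusted p = 0.0545) for RT1-Bb. Without MCT replicate 1 they stood at 2.79 (adjusted p = 0.00599) and 1.85 (adjusted p = 0.00223), and with no filter on low counts RT1-Bb also passed (adjusted p = 0.0422). The same sample had the highest RT1-Da and RT1-Db1 of all. For RT1-Bb the deposited FPKM does not follow the count, since the gene length implied by both was 800 and 782 bases in control replicates 1 and 2 and 1844 bases in the other 4 samples. On the log2(FPKM + 1) scale its fold change was 0.44, and RT1-Ba had 1.52. The FPKM of RT1-Bb is left out of the order of class II genes per length given below. The summed FPKM given above includes it.

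The DM chains help load class II peptides. RT1-DMb (ENSRNOG00000051002) had 28.2, 40.5 and 44.6 CPM in control lungs, against 73.6, 73.6 and 67.3 CPM in MCT lungs. All MCT samples were above all controls, and the row rose by 0.92 (SE 0.17, adjusted p = 0.0121). It was called in all alternatives run, with adjusted p-values of 5.42e-05 to 0.0428.

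RT1-DMa (ENSRNOG00000047864) had 19.03, 28 and 17.04 CPM in controls, against 27.7, 11.02 and 39.9 CPM in MCT lung, with overlapping groups and 0.30 as its log2 fold change (SE 0.40, adjusted p = 0.674). The table holds a further row for each DM chain under a LOC symbol, and the counts of these 4 rows carry decimals in all 6 samples. LOC108348072, a DM alpha chain row, had 11.6, 16.6 and 24.9 CPM in controls, against 50.7, 56.1 and 31.5 CPM after MCT, and was called higher (1.38, adjusted p = 0.0213). Added to RT1-DMa, it gave 30.7, 44.6 and 41.9 CPM in controls, against 78.5, 67.2 and 71.4 CPM in MCT lung, so that the groups did not overlap.

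The division between these copies varied for the alpha chain and not for the beta chain. RT1-DMa held 62.0%, 62.8% and 40.7% of its sum in controls, against 35.4%, 16.4% and 55.9% after MCT. RT1-DMb held 50.7% to 51.0% of the sum with its copy LOC108348139 in every sample. That copy was called higher (0.94, adjusted p = 0.0114), and its reads may be in part those of RT1-DMb, so it is no independent measurement. The LOC rows are outside the selection by symbol and were looked at after their values were seen.

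**Figure D4:**
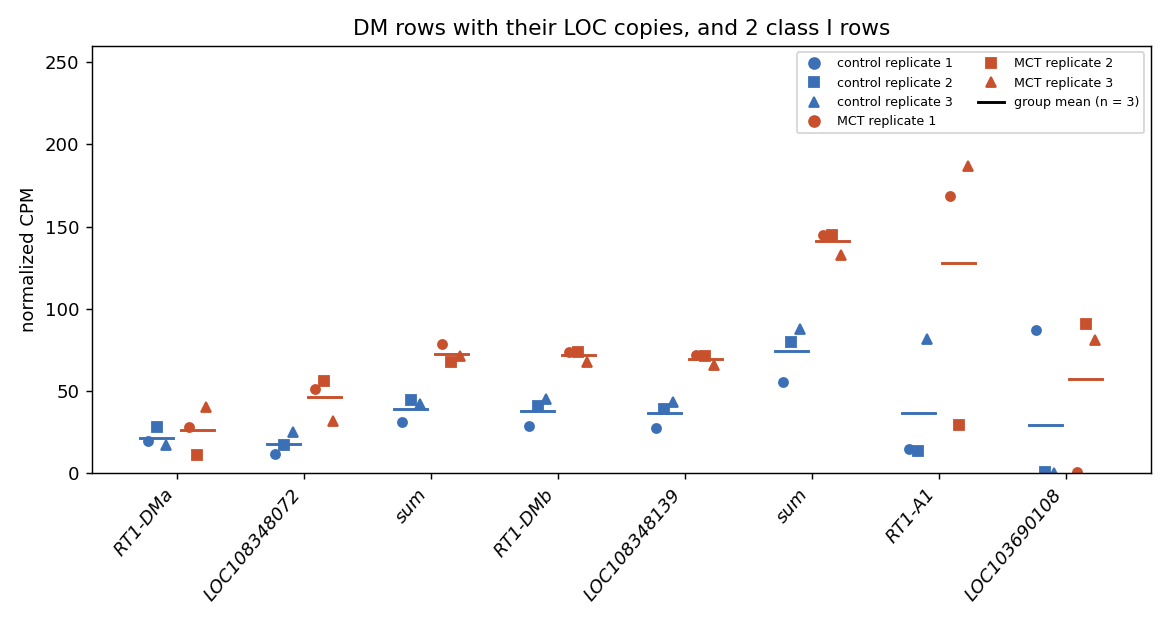
Normalized CPM (y axis) of RT1-DMa, RT1-DMb, their LOC copies and the sum of each pair, and of the class I rows RT1-A1 and LOC103690108 (x axis), in 3 control (blue) and 3 MCT (orange) samples with bars for group means. The alpha chain sum runs from 30.7 to 44.6 CPM in controls and from 67.2 to 78.5 CPM in MCT lung.

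The DO chains, which restrain DM and are made mainly by B cells, were not called. RT1-DOa (ENSRNOG00000026762) had 11.1, 20.3 and 26.2 CPM in control lungs, against 7.53, 17.2 and 10.02 CPM in MCT lungs, with -0.73 as its log2 fold change (SE 0.37, adjusted p = 0.224). RT1-DOb (ENSRNOG00000000454) had 9.05, 13.4 and 18.4 CPM in controls, against 12.3, 12.2 and 11.98 CPM after MCT, with -0.17 (SE 0.25, adjusted p = 0.702). Both had overlapping groups, and the difference between DM and DO was not tested. RT1-Ha (ENSRNOG00000026669), the DP counterpart, had 5 to 30 counts per sample. Its 0.732, 1.19 and 1.62 CPM in controls, against 0.339, 0.711 and 0.5604 CPM after MCT, did not overlap, and its log2 fold change was -1.13 (SE 0.47, adjusted p = 0.15).

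Cd74 (ENSRNOG00000018735), the invariant chain gene, had 1075, 1297 and 1305 CPM in control lungs, against 1396, 1715 and 1456 CPM in MCT lungs. All MCT samples were above all controls, but the log2 fold change of 0.31 did not pass (SE 0.16, adjusted p = 0.228). Ciita (ENSRNOG00000002659), the transactivator, had 21.03, 35.5 and 42.1 CPM in controls, against 46.5, 39.95 and 35.7 CPM in MCT lung. Control replicate 3 stood inside the MCT range, and 0.31 was the log2 fold change (SE 0.24, adjusted p = 0.433). For these 2 partners edgeR, DESeq2 and limma-voom called 0 in either direction, and 0 had an unadjusted p under 0.05.

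**Figure D5:**
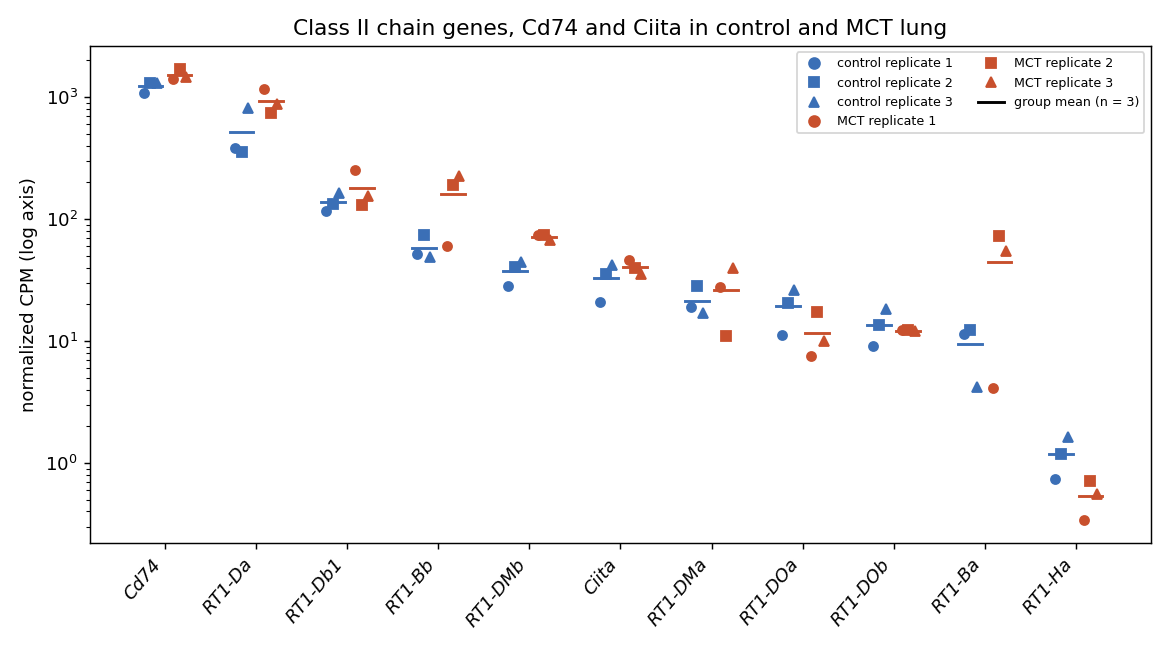
Normalized CPM (y axis, log scale) of the 9 tested class II chain rows, Cd74 and Ciita (x axis) in 3 control (blue) and 3 MCT (orange) samples, with marker shapes for replicates and bars for group means. All MCT points of RT1-DMb and Cd74 lie above the controls, while MCT replicate 1 is at 4.14 CPM in RT1-Ba.

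Per length, Cd74 led the class II genes of control lung with 1075 ± 138 FPKM, followed by RT1-Da with 436 ± 230.3 and RT1-Db1 with 126 ± 24.8 FPKM (SD, n = 3). Below them came RT1-DMb with 31.6 ± 7.89, RT1-DMa with 19.5 ± 5.09, RT1-DOa with 16.4 ± 6.904, RT1-DOb with 11.04 ± 4.11 and RT1-Ba with 8.34 ± 3.87 FPKM. From RT1-DMb to RT1-Ba, neighbours in this order lay within the reach of their SDs. In MCT lung Cd74 had 1312 ± 133, RT1-Da 777 ± 183, RT1-Db1 162 ± 58.8, RT1-DMb 57.98 ± 3.1 and RT1-Ba 39.1 ± 31.7 FPKM. RT1-DMa had 23.9 ± 13.3, RT1-DOa 9.75 ± 4.14 and RT1-DOb 9.74 ± 0.199 FPKM there. Among class I rows RT1-A2 led in both groups, with 348 ± 62.01 FPKM in controls and 221 ± 27.7 after MCT, and B2m had 1683 ± 115 and 1640.2 ± 100.3 FPKM.

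Other genes of the class II route rose in part. In a list of 13 tested genes for lysosomal processing and class II transcription factors, 5 rose, 0 fell and 8 were not called (median log2 fold change 0.32), and DESeq2 and limma-voom called the same numbers. Ctss, the gene of cathepsin S, which trims the invariant chain, had 38.9, 34.3 and 34.5 CPM in control lungs, against 129, 90.7 and 91.8 CPM in MCT lungs, and rose by 1.53 (SE 0.16, adjusted p = 0.00135). All its MCT samples were above its controls. The cathepsin D gene Ctsd, the most abundant of the list, rose by 1.43 (adjusted p = 0.00392) and Lgmn, the gene of the endopeptidase legumain, by 1.10 (adjusted p = 0.00839). The other risers, outside the rule for named genes, were Ifi30 and Ctsb, the latter lost without control replicate 2 or 3 (adjusted p = 0.0521 to 0.0612). The 8 genes not called were Ctsl, the gene of another lysosomal enzyme, with 0.32 (adjusted p = 0.239), and the transcription factor genes Rfx5, Rfxap, Rfxank, Nfya, Nfyb, Nfyc and Creb1, with log2 fold changes from -0.18 to 0.63.

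Of 13 tested genes of the interferon gamma route, which drives both Ciita and class I genes, 3 rose, 0 fell and 10 were not called (median log2 fold change 0.26). DESeq2 called 5 higher and 0 lower, and limma-voom 3 and 0. The chemokine gene Cxcl9 had 3.66, 3.65 and 3.99 CPM in control lungs, against 16.3, 13.99 and 19.8 CPM in MCT lungs, and rose by 2.15 (SE 0.20, adjusted p = 0.000972). Irf8, a transcription factor gene of macrophages and dendritic cells, rose by 1.05 (adjusted p = 0.0104), which did not hold when control replicate 3 was left out (adjusted p = 0.0516).

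Ifngr2, a receptor subunit gene, rose by 0.59 (adjusted p = 0.0491). That call ended with limma-voom (adjusted p = 0.0526) and without any 1 sample other than MCT replicate 2 (adjusted p = 0.0803 to 0.144). Ifngr1, the most abundant of the list, had 0.39 (adjusted p = 0.0918) and passed with DESeq2 (adjusted p = 0.046). The cytokine gene Ifng itself, outside the rule for named genes, had 5, 3 and 2 counts in the controls and 0 in each MCT sample and was not tested.

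The macrophage and dendritic cell markers that were called were higher in MCT lung, as the class II sum was, and the called markers of B cells and alveolar type 2 cells, which also carry class II, were lower. Their part in the results was not tested. Of 5 lung identity genes, led by Sftpc and Scgb1a1, edgeR, DESeq2 and limma-voom called 0 in either direction, 0 had an unadjusted p under 0.05, and all were abundant. Of 7 tested macrophage markers 6 rose and 0 fell. The count was 4 without control replicate 2 or 3 and 5 without MCT replicate 1 or 3. The summed level of the macrophage list was 403 to 513 CPM in controls and 733 to 1012 CPM in MCT lung. Cd68 rose by 1.96 (adjusted p = 0.00282), Siglec1 by 1.96 (adjusted p = 0.00191, or 1.23 on the log2(FPKM + 1) scale) and Mrc1 by 1.15 (adjusted p = 0.00721), while Csf1r had 0.25 (adjusted p = 0.382).

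Of 10 tested dendritic cell rows 4 rose and 0 fell, and the sum was 121 to 145 CPM in controls and 221 to 433 CPM in MCT lung. The count was 3 without control replicate 2, and 5 without control replicate 1 or MCT replicate 2. The called rows were those of Clec10a and Xcr1 and the tested rows of Cd209a (median log2 fold change of the list 0.99). Ccr7 and Zbtb46, outside the rule for named genes, went the other way, with -0.65 (adjusted p = 0.17) and -0.21 (adjusted p = 0.5). Clec10a, a lectin gene also made by macrophages, went from 28.0 to 146 CPM in the mean and rose by 2.38 (adjusted p = 0.0027). The most abundant of the Cd209a rows rose by 5.12 (adjusted p = 0.00403), or by 4.27 without MCT replicate 1 and by 3.02 on the log2(FPKM + 1) scale. This row had 4, 4 and 9 counts in controls, and 24.2, 4.39 and 9.67 CPM in MCT lung. The other called Cd209a row had 0, 1 and 0 counts in controls, so the size of both rises is uncertain. Itgax had 0.96 (adjusted p = 0.126) and passed with DESeq2 (adjusted p = 0.0382) and also when MCT replicate 2 was left out (adjusted p = 0.00514).

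Of 7 B cell markers 4 fell and 0 rose, with sums of 88.6 to 172 CPM in controls and 49.3 to 70.05 CPM in MCT lung. Limma-voom called 2 lower, and leaving out control replicate 2, control replicate 3, MCT replicate 2 or MCT replicate 3 left 1. Cr2 fell by 1.14 (adjusted p = 0.0055), Ms4a1 by 1.59 (adjusted p = 0.0276) and Cd79b by 1.14 (adjusted p = 0.0491). Leaving out any 1 sample other than control replicate 1 ended the call of Cd79b (adjusted p = 0.0592 to 0.162), and that of Ms4a1 ended when control replicate 2, control replicate 3, MCT replicate 2 or MCT replicate 3 was left out (adjusted p = 0.0561 to 0.103).

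Of 12 T and NK cell markers 4 fell and 0 rose, and the sum was 160.5 to 253 CPM in controls and 103 to 156 CPM in MCT lung. The count was 2 without control replicate 2 or 3 and 9 without MCT replicate 2. Klrd1, an NK receptor subunit gene, fell by 1.54 (adjusted p = 0.00768) and Ncr1 by 1.43 (adjusted p = 0.0102), the latter with an adjusted p = 0.0501 without control replicate 3. Lck had -0.74 (adjusted p = 0.0663), passing with DESeq2 (adjusted p = 0.0214), and Cd4, which rat macrophages also make, had 0.70 (adjusted p = 0.12).

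Of 8 alveolar type 2 markers 3 fell and 0 rose, with sums of 26076 to 28261 CPM in controls and 15309 to 24721 CPM in MCT lung. The count was 1 without any 1 control or without MCT replicate 2. Etv5 fell by 1.37 (adjusted p = 0.00788) and Slc34a2 by 1.35 (adjusted p = 0.0294), while Sftpc had -0.59 (adjusted p = 0.209) and Sftpa1 0.14 (adjusted p = 0.686). Slc34a2 was not called without any 1 control or MCT replicate 2 (adjusted p = 0.06 to 0.0936).

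Of 8 endothelial markers 3 fell and 0 rose, or 5 without MCT replicate 2, with sums of 3763 to 4278 CPM in controls and 1722 to 3209 CPM after MCT. Tek fell by 2.38 (adjusted p = 0.00246) and Calcrl by 2.11 (adjusted p = 0.00112), and Cldn5 had -0.37 (adjusted p = 0.306). Of 4 tested neutrophil markers edgeR, DESeq2 and limma-voom called 0, with 2 higher at an unadjusted p under 0.05. Without MCT replicate 2, S100a9 (adjusted p = 0.0416) and S100a8 (adjusted p = 0.0479) were called higher, and 2 were without MCT replicate 3, among them S100a9 (adjusted p = 0.0452). The list's summed level was 29.7 to 55.7 CPM in controls and 584, 62.5 and 43.3 CPM in MCT lungs, so MCT replicate 1 stood apart, led by S100a9 and S100a8. No marker row in these lists was at 0 in all 6 samples.

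Library totals were 13525912 to 17916134 counts, and the 38 MHC rows took 0.685% to 0.889% of them. Repeat samples of each group differed beyond counting error (chi-square over its degrees of freedom 22.1 to 49.7), so none were merged. The labels do not call the samples separate animals, and a p-value here then reflects only how far these samples spread, possibly for technical reasons.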

How the data were processed

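PolyA RNA of 6 rat lung samples was sequenced, and the authors deposited 1 table with an estimated count and an FPKM value per gene and sample, per the file headers. Bowtie2, TopHat2 2.0.3.12 and the build Rnor_6.0 are named in the submitters' processing notes. The counting tool, strandedness, annotation release and treatment of multi-mapped reads: not given in the sources used here. Per sample, 90.7% to 91.5% of the estimated counts above 0 were whole, within 1e-06. They were rounded for the tests, which had been planned for raw counts.

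Genes were kept with filterByExpr (minimum count 10, minimum total 15), scaled with TMM and tested with edgeR 4.0.16 (R 4.3.3) over all 15250 kept genes, without covariates. Standard errors are the log2 fold change over the square root of F. Alternatives were DESeq2 1.42.0, limma-voom and limma-trend on log2(FPKM + 0.1) and log2(FPKM + 1) (limma 3.58.1), other scaling and filters, a replicate block and leaving out each sample. The procedure was tested on simulated data.

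Values in every sample are given for tested class II chains, their partners, the class I machinery, called class I rows and the 5 most abundant class I rows. Of pathway lists up to 3 called members of smallest p and the most abundant are named, and of marker lists the 2 most abundant and the 2 of smallest p, except 1 marker that is not reported here. Members and lists were chosen with earlier results of these data known. Positions on Rnor_6.0 are not given, since no annotation of that build was used.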

Additional observations from a re-analysis of the deposited data

How the results depend on the processing

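Of the 31 tested rows, 23 kept the direction of their log2 fold change in all alternatives run, and 8 changed it in at least 1. Where the groups did not overlap, leaving out 1 sample could not change the direction. RT1-CE7 turned to -0.021 with limma-voom, -0.023 on log2(FPKM + 0.1) and -0.017 on log2(FPKM + 1). Leaving out 1 sample gave ranges of -0.64 to 0.51 for RT1-CE7, -0.13 to 0.66 for RT1-T24-1, -0.34 to 0.061 for RT1-N3, -0.068 to 0.027 for B2m, -0.060 to 0.20 for Tap1, -0.061 to 0.31 for Tap2, -0.14 to 0.67 for RT1-DMa and -0.39 to 0.12 for RT1-DOb; none of these rows was called, and the cause was not tested. DESeq2 called 2 MHC rows higher, both of them class II rows, as did the fit with no filter on low counts, and DESeq2 called 1182 genes lower over all genes, against 779. Over the 6 fits without 1 sample, fewer samples gave 1 to 3 MHC rows higher and 0 to 6 lower, 0 to 1 class I rows higher and 0 to 6 lower, 1 to 3 class II rows higher, and 481 to 1394 genes higher and 212 to 978 lower over all genes.

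The replicate numbers are shared by both groups, and the main fit did not treat them as pairs. Same-numbered samples had correlations of deviations of -0.06, -0.08 and -0.03, against -0.07 to 0.12 in the other combinations. With 3 samples per group these values cannot settle whether the numbers mark pairs. With the replicate block, 2 MHC rows were called lower (the class I rows RT1-CE1 and RT1-T24-3), against 5, and RT1-CE7 had -0.046. The summed class levels and their ratio moved by less than 1 pooled within-group SD in every alternative. Leaving out 1 of 3 samples cannot move them by that much, and other scaling cancels in the ratio. Those fits therefore could not have shown a larger move. Without 1 sample the class I sum differed by -0.78 to -0.52 and the class II sum by 0.70 to 1.13. RT1-Ha could not be tested under the stricter filter. Rows of few counts (RT1-Ha, RT1-CE3 and the untested rows) are limited by depth.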

Other observations

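Costimulatory genes, whose products give T cells a further signal beside the peptide on class II, were partly higher in MCT lung. Of 5 tested genes 2 rose, 0 fell and 3 were not called. Cd80 had 1.597, 1.34 and 1.89 CPM in control lungs, against 10.7, 7.23 and 6.09 CPM in MCT lungs (log2 fold change 2.30, SE 0.31, adjusted p = 0.00362 by edgeR, and 1.49 on the log2(FPKM + 1) scale). Cd86 rose by 1.61 (adjusted p = 0.0054), and Cd40, the most abundant of the list over all 6 samples, had 0.071 (adjusted p = 0.865).

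Of 15 genes of the type I interferon response edgeR and limma-voom called 0 in either direction, with 0 higher and 2 lower at an unadjusted p under 0.05 and 1 lower by DESeq2. Without MCT replicate 2, 3 were called lower, and without control replicate 1, 2 were. The list's median log2 fold change was -0.59, beside -0.01 over all tested genes. Bst2, the most abundant of them, had 252, 172 and 189.7 CPM in controls, against 85.98, 168 and 119.6 CPM in MCT lung (log2 fold change -0.72, adjusted p = 0.0916 by edgeR, 0.0285 by DESeq2).

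A class I row outside the selection, LOC103690108 (ENSRNOG00000047706), was high in some lungs and nearly absent in others. It had 86.7, 0.223 and 0.0539 CPM in control lungs, against 0.339, 90.6 and 80.8 CPM in MCT lungs. The high samples were 1 control and 2 MCT lungs, so the levels did not follow the groups (log2 fold change 0.98, adjusted p = 0.753 by edgeR). RT1-A1 was high in control replicate 3 and MCT replicates 1 and 3, and RT1-Ba in MCT replicates 2 and 3. A further class I row outside the selection, LOC100364500, had 8.58, 9.38 and 13.2 CPM in controls, against 2.98, 6.52 and 4.55 CPM in MCT lung. It was called lower (log2 fold change -1.15, adjusted p = 0.0459 by edgeR), and its counts carry decimals in all 6 samples.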
